A study of Homo sapiens with 9 samples.

Results

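OTUB2 overexpression was compared with an empty vector in ES-2 cells, an established human ovarian cancer line, across all expressed genes. The comparison used 6 of the 9 libraries of the series, chosen by the genotype in the labels: 3 from cells carrying the empty vector and 3 from cells overexpressing OTUB2. The other 3 libraries came from cells overexpressing SNX29P2, a transcribed pseudogene, and serve here as a second overexpression group. All cells were grown in RPMI-1640 with fetal bovine serum and received no treatment, so no group was exposed to low oxygen or to an inhibitor. Neither the vector, its promoter nor any selection is named in the labels, nor whether replicates were grown as separate cultures. The p-values therefore measure the spread between these libraries, which may be technical. Levels are RPKM, reads scaled to gene length and library size, and fold changes are differences of log2(RPKM + 0.1), OTUB2 minus vector. Of 32997 genes in the table, 16533 had at least 0.5 RPKM in at least 3 of the 9 libraries and were tested.

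OTUB2 belongs to the ovarian tumour (OTU) family of deubiquitinases, enzymes that remove ubiquitin chains from other proteins and so can spare them from the proteasome. Such an enzyme acts on proteins, and messenger RNA shows only what lies downstream of it. The title of the series ties loss of OTUB2 to mitochondrial metabolism and to CA9, a carbonic anhydrase on the cell surface that helps tumour cells export acid. Transcription of CA9 depends on hypoxia-inducible factor (HIF), whose oxygen-regulated subunit HIF1A is marked for destruction by the ubiquitin ligase containing VHL.

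The 9 libraries held 38504854 to 48551215 reads in genes. Over all genes tested, the typical (median) SE of the comparison was 0.126 in log2 units, giving a 95% interval 0.283 wide on each side. Keratins 7, 8 and 18 and vimentin were high in all 6 libraries, while EPCAM, KRT19 and NAPSA, markers of ovarian epithelial tumours, were at or near 0. Of the defining markers of fibroblasts and endothelium, COL1A2, COL3A1, PDGFRB, VWF and PECAM1 were at or near 0. The fibroblast markers COL1A1 and PDGFRA were at 72.1 and 1.62 RPKM on average with the vector and 59.3 and 1.27 with OTUB2. CDH5 of endothelium was at 20.01 and 22.2 RPKM, and CD68 of macrophages at 31.9 and 33.2. OTUB2 replicate 1 stood apart, because it held transcripts of blood cells. HBA2, a haemoglobin chain, was at 952 RPKM there and at no more than 2.12 in any of the other 8 libraries. HBB was at 186 against at most 0.352, and the neutrophil genes S100A9 and FCGR3B were at 8.54 and 3.31 against 0. Haemoglobin took 0.109% of the reads of that library. None of these genes passed the filter, and the part of this in the results below was not tested. Values without OTUB2 replicate 1 are given for some genes only. Without that library, the fit to reads with a replicate block, described below, called 4 genes in place of 65. Of the 65, only these 4 stayed called, whether or not such a value is printed.

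The transgene was clearly expressed. In the vector libraries OTUB2 stood at 1.31, 1.16 and 1.04 RPKM, and in the OTUB2 libraries at 37.6, 42.6 and 38.4, which is 31.3-fold higher (log2 fold change 4.97; limma adjusted p = 6.48e-07). The gene lies on chromosome 14, from 94026329 to 94048930 in GRCh38. Reads of the construct and of the chromosomal gene were not separated. Of 15 OTU family genes matched, OTUB2 had rank 13 by RPKM in each vector library and rank 1 in each OTUB2 library. Its share of the family's summed RPKM went from 1.31, 1.16 and 1.06% to 27.6, 30.2 and 28.6%. The rest of the family did not follow: its sum was 97.1 to 99.2 RPKM with the vector and 95.8 to 98.9 with OTUB2, ranges that overlap. OTUB1, the closest relative, was at 27.5 ± 2.44 and 27.7 ± 1.35 RPKM (SD, n = 3).

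Besides OTUB2, CA9 and BGN fell, and these were all the genes called. The limma fit with group as its only term called 3 of 16533 genes at a Benjamini-Hochberg adjusted p under 0.05, which is 0.0181%. With the digit in the library name as a replicate block, limma called 4, or 0.0242%, adding the transcript RP11-37C7.1. An unadjusted p under 0.05 was found for 6.73% of genes, 3.62% higher and 3.1% lower, and for 11.7% with the block. The vector and OTUB2 libraries did not overlap in 10.8% of genes, 5.9% higher and 4.91% lower.

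CA9 (chromosome 9, 35673856 to 35681159) was at 3.96, 6.75 and 2.29 RPKM with the vector and 0.198, 0.148 and 0.0900 with OTUB2. In reads, these were 282, 434 and 158 against 14, 12 and 6. The vector libraries differ among themselves by a wide margin, with replicate 2 highest, and all lie far above the OTUB2 libraries. The log2 fold change was -4.07 (95% interval -5.01 to -3.13), or 16.8-fold lower on a scale where the added 0.1 exceeds or nears the OTUB2 levels. The group means were 4.33 and 0.145 RPKM, which is 29.8-fold, and limma voom with the block gave -4.89 (adjusted p = 0.000262). Without the block, limma voom did not call CA9. On the RPKM scale the limma Benjamini-Hochberg adjusted p was 0.0173 without and 0.0380 with the block. BGN (chromosome X, 153494939 to 153509554) encodes biglycan, a small proteoglycan of the extracellular matrix. It was at 6.27, 7.33 and 5.13 RPKM with the vector and 2.42, 2.13 and 2.23 with OTUB2, with no overlap and a much tighter spread in the OTUB2 group. Its log2 fold change was -1.41 (95% interval -1.71 to -1.12), or 2.66-fold lower, with a limma adjusted p of 0.0109 without and 0.0420 with the block. Without OTUB2 replicate 1, the limma adjusted p was 0.0693 for CA9 and 0.0566 for BGN, and the log2 fold changes were -4.22 and -1.46. Leaving out each library in turn, the call of CA9 held only without vector replicate 3 and that of BGN only without vector replicate 2 or 3. The adjusted p ranged from 0.0158 to 0.128 for CA9 and from 0.00681 to 0.0976 for BGN, and both stayed lower in all 6 fits.

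Printed next are the 250 bases before the RefSeq start (GRCh38.p14) of CA9 and BGN, the called genes other than the transgene, and of ABI3BP, described below. They are shown because these 3 genes were the ones besides OTUB2 that stayed called, in the fits to reads given below, whichever library was left out. The core letters bound by HIF, ACGTG or GCGTG on either strand, are in capitals, and the rest is in lower case. The windows are chr9:35673678-35673927 on the plus strand for CA9, chrX:153494730-153494979 on the plus strand for BGN and chr3:100993422-100993671 on the minus strand for ABI3BP. The gene starts of the deposited table lie 72, 41 and 94 bases upstream of those of RefSeq, inside the windows.
CA9: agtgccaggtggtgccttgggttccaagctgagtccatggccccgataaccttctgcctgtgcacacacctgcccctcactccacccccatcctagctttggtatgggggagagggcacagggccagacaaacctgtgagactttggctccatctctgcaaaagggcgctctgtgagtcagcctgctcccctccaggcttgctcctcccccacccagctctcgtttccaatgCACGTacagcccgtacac
BGN: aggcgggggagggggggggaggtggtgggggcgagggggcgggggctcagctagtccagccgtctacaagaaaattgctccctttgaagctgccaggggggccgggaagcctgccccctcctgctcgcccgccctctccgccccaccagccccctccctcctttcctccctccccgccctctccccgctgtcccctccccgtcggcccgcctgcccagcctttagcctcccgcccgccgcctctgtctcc
ABI3BP: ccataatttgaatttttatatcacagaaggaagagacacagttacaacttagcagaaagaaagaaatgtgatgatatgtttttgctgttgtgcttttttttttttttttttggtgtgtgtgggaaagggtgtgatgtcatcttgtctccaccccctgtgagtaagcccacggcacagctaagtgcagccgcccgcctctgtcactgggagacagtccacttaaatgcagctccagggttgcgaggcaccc
CA9 holds 1 match, to ACGTG on the other strand, 18 to 14 bases before the start, and the other windows hold none. Either letter string occurs in 43.2% of the 35116 RefSeq windows of the same length, so a match is common and is only a description.

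RP11-37C7.1 (chromosome 15, 39770559 to 39801333) has a clone-based name. It was at 15.3, 16.8 and 15.0 RPKM with the vector and 9.86, 10.3 and 9.45 with OTUB2, without overlap. Its log2 fold change was -0.66 in both fits, with an SE of 0.0865 without and 0.0581 with the block. The limma adjusted p went from 0.0922 to 0.0420. ABI3BP, a matrix protein named for binding ABI3 (chromosome 3, 100749156 to 100993515), was at 0.854, 0.878 and 0.626 RPKM with the vector and 0.277, 0.278 and 0.239 with OTUB2. Its level is below 1 RPKM in all 6 libraries, but this still rests on 284 to 400 reads in the vector libraries and 105 to 148 in the OTUB2 libraries. The fold change of -1.27 (SE 0.268) had a limma adjusted p of 0.475 on the RPKM scale. With limma voom, which weights each value by its reads, the adjusted p was 0.00779.

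**Figure D1:**
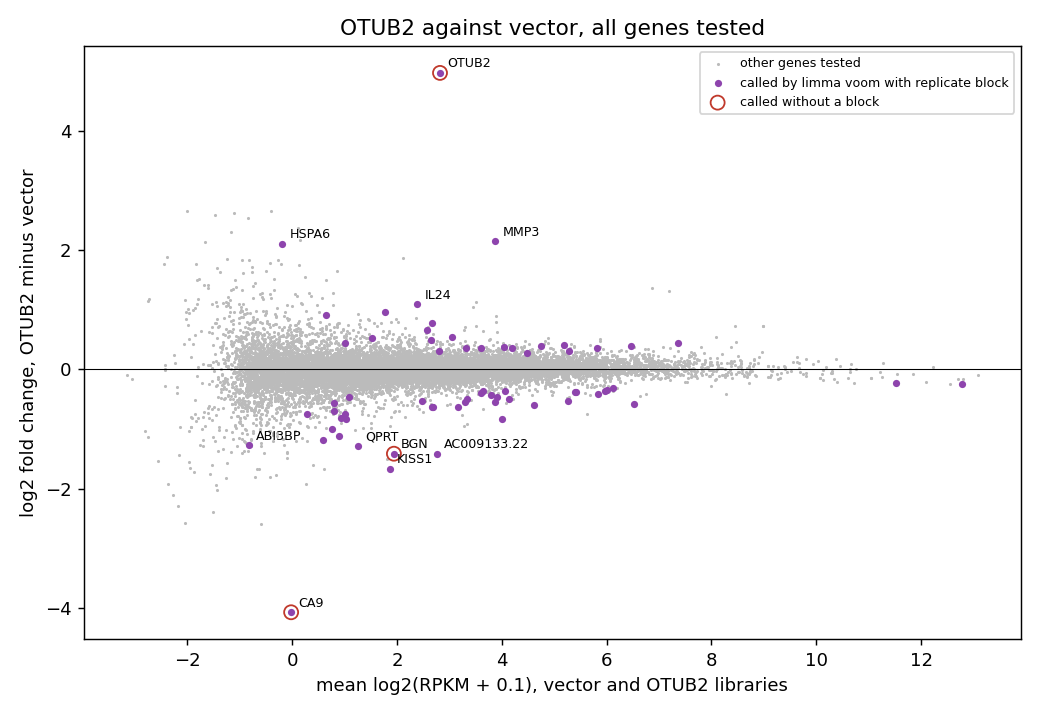
Fold change of each of the 16533 genes tested (y, log2, OTUB2 minus vector) against its mean level (x, log2(RPKM + 0.1), 6 libraries). Red rings mark the 3 genes called without a block and purple points the 65 called by limma voom with the replicate block, 13 of which have a log2 fold change beyond 1 in either direction.

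HIF1A and VHL messages were near the vector level. HIF1A was at 86.3, 74.0 and 69.1 RPKM with the vector and 81.2, 69.4 and 64.5 with OTUB2. Its log2 fold change was -0.09 (95% interval -0.34 to 0.15; limma adjusted p = 0.928). VHL was at 7.63, 7.63 and 6.01 RPKM against 6.62, 7.59 and 7.49, a log2 fold change of 0.04 (95% interval -0.21 to 0.28; adjusted p = 0.983). For both, the groups overlap, and the intervals exclude a change beyond 0.34 in either direction. Protein levels were not measured. CUL2, the cullin scaffold of the VHL ligase, was at 20.4, 19.9 and 20.2 RPKM with the vector and 21.8, 21.3 and 21.7 with OTUB2, without overlap (log2 fold change 0.10; adjusted p = 0.784). TCEB1, elongin C of that ligase, had a log2 fold change of 0.20 (95% interval 0.03 to 0.38; limma adjusted p = 0.704). Of 18 ubiquitin and HIF degradation genes 13 were higher, with a median of 0.08, beside 52% of all genes. In this list 3 were higher without overlap and 0 lower, beside 5.9% and 4.91% of all genes. SNX29P2 itself was at no more than 0.0665 RPKM in any of the 6 libraries.

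A fit to reads widened the set of called genes. Whole reads were recovered from the RPKM values and fitted with limma voom. Without a block it called 3 genes, or 0.0181%, namely OTUB2, BGN and ABI3BP. With the replicate block it called 65 genes, or 0.393%, of which 24 were higher and 41 lower with OTUB2. The groups did not overlap for 51 of the 65, and 59 had an unadjusted p under 0.05 in the fit without a block. Both counts come from the same libraries that chose the 65, so they add no support. The number called depends strongly on single libraries. It was 792 without vector replicate 1, 175 without vector replicate 3 and 18 without vector replicate 2. Leaving out an OTUB2 library gave 14 without replicate 3, 6 without replicate 2 and 4 without replicate 1. The 4 genes called in each of these fits were OTUB2, CA9, BGN and ABI3BP. Of the 65, 22 stand on gene lists used here. Most of those named below fall outside the rule for named genes and were chosen after their values were seen, and limma voom with the block is the test behind each limma voom adjusted p given for them. Fold changes beside such a p are on the RPKM scale unless the text says otherwise. The replicate numbers were not taken to pair the vector and OTUB2 libraries, so each such p rests on an unsettled block.

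**Figure D2:**
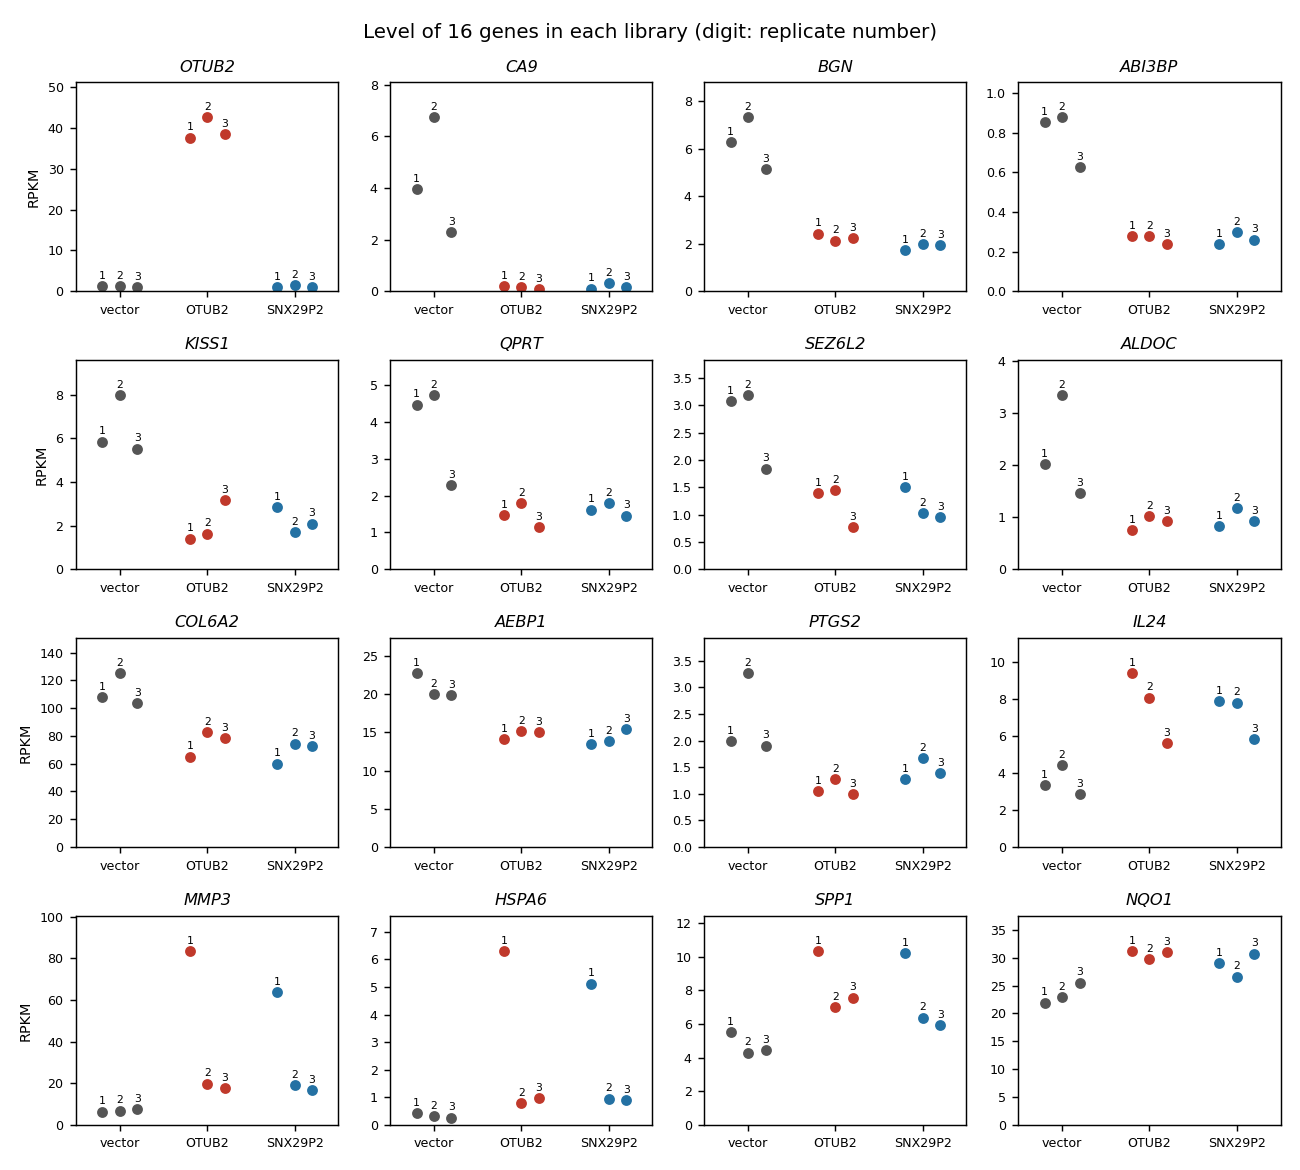
RPKM (y, linear from 0) of 16 genes in each of the 9 libraries, by group (x), with the replicate number above each point. CA9 and BGN are low in both overexpression groups, and for MMP3 and HSPA6 the libraries numbered 1 of both groups stand far above the others.

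Among genes of the matrix and its receptors, several called by limma voom with the block were lower with OTUB2, and SPP1 and MMP3 were higher. COL6A2, a chain of collagen VI, was at 108, 125 and 103 RPKM with the vector and 65.1, 82.8 and 78.2 with OTUB2 (log2 fold change -0.58; limma voom adjusted p = 0.00458). Its partner chain COL6A1 was at 65.7, 85.2 and 66.9 against 49.8, 66.8 and 55.7 RPKM, with overlap (log2 fold change -0.34; limma voom adjusted p = 0.0143). AEBP1, a collagen-binding protein, went from 22.8, 20.01 and 19.8 to 14.1, 15.2 and 15.1 RPKM, without overlap (log2 fold change -0.49; limma voom adjusted p = 0.0241). Integrin alpha 3, encoded by ITGA3, was at 70.0, 80.8 and 63.8 against 52.5, 59.1 and 55.5 RPKM (log2 fold change -0.36; limma voom adjusted p = 0.0271). VCAM1 and ICAM1, receptors for leukocyte integrins, had log2 fold changes of -0.70 and -0.54 (limma voom adjusted p = 0.0372 and 0.0323). FN1, fibronectin, was at 125, 135 and 111 against 79.4, 102 and 98.9 RPKM (log2 fold change -0.41) and was not called (limma voom adjusted p = 0.0760).

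In the opposite direction, MMP3, a metalloprotease that cleaves matrix proteins, was at 6.41, 6.84 and 7.39 RPKM with the vector and 83.7, 19.8 and 17.6 with OTUB2. All OTUB2 libraries are above all vector libraries, and replicate 1 is more than the sum of the other two. The log2 fold change was 2.15 (limma adjusted p = 0.606), and 2.47 in limma voom with the block (adjusted p = 0.0109). Without OTUB2 replicate 1 these were 1.43 (adjusted p = 0.963) and 1.97 (adjusted p = 0.129). SPP1, osteopontin, a secreted adhesion protein, was at 5.51, 4.30 and 4.44 against 10.4, 7.02 and 7.57 RPKM (log2 fold change 0.78; limma voom adjusted p = 0.00626; without OTUB2 replicate 1 0.62 and 0.0802). Over the lists, 16 of 21 matrix glycoproteins and 9 of 15 collagens were lower, with medians of -0.08 and -0.04 beside 0.01 over all genes. Over all genes tested, 7936 of 16533 were lower and 52% higher. Of the matrix glycoproteins 5 had an unadjusted p under 0.05 and were lower, and 2 were higher, beside 3.1% and 3.62% of all genes. Of the small leucine-rich proteoglycans matched, only BGN and TSKU passed the filter. TSKU, tsukushi, was at 6.64, 7.75 and 5.79 RPKM against 5.27, 5.43 and 4.92 (log2 fold change -0.35; limma adjusted p = 0.686).

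Metabolic enzymes beyond CA9 were led by QPRT, which makes nicotinic acid mononucleotide on the route from tryptophan to NAD. It was at 4.47, 4.73 and 2.28 RPKM with the vector and 1.46, 1.80 and 1.14 with OTUB2. The groups do not overlap, and vector replicate 3 lies closest to the OTUB2 libraries. The log2 fold change was -1.28 (limma adjusted p = 0.475; limma voom with block 0.00458). QPRT lies on chromosome 16 beside the transcript AC009133.22 (12.9, 14.5 and 7.02 against 3.75, 5.10 and 3.49 RPKM) and near SEZ6L2, a membrane protein of neurons (3.08, 3.19 and 1.84 against 1.39, 1.44 and 0.774 RPKM). The 3 genes span 236 kb, from 29663279 to 29899547, and vector replicate 3 is the lowest vector library for each. AC009133.22 overlaps QPRT, so the counting may split reads of that pair. Of 39 genes tested in a window reaching 250 kb to either side, 4 had groups that do not overlap, all lower: these 3 and ALDOA, a glycolytic aldolase, at -0.07. In either direction that share is close to the 10.8% of all genes tested, while 4.91% of all genes were lower without overlap. Since AC009133.22 and QPRT overlap, the 4 genes are not independent, and the count is only a description.

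ALDOC, a glycolytic aldolase, was at 2.02, 3.35 and 1.47 RPKM with the vector and 0.757, 1.03 and 0.924 with OTUB2, without overlap (log2 fold change -1.18; limma voom adjusted p = 0.0262). GAA, the lysosomal enzyme that breaks down glycogen, was at 18.4, 19.2 and 15.2 against 12.1, 12.5 and 11.5 RPKM (log2 fold change -0.54; limma voom adjusted p = 0.00618). TPP1, a lysosomal peptidase, had a log2 fold change of -0.38 (limma voom adjusted p = 0.0372). NQO1, a quinone reductase induced by the antioxidant factor NRF2, was higher, at 22.0, 23.0 and 25.5 against 31.2, 29.8 and 31.0 RPKM (log2 fold change 0.39; limma voom adjusted p = 0.0271).

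Secreted regulators moved both ways. KISS1, the precursor of kisspeptins, known as a suppressor of metastasis, was at 5.85, 7.99 and 5.53 RPKM with the vector and 1.40, 1.63 and 3.18 with OTUB2. The groups do not overlap (log2 fold change -1.67; limma adjusted p = 0.398; limma voom with block 0.0463). PLTP, a phospholipid transfer protein, was at 31.1, 33.4 and 26.0 against 18.6, 21.2 and 19.3 RPKM (log2 fold change -0.60; limma voom adjusted p = 0.00483). FSTL3, an inhibitor of activin, was at 9.11, 15.9 and 9.57 against 6.15, 9.17 and 6.46 RPKM. Its groups overlap, because replicate 2 is high in each, and within each number the OTUB2 library is lower (log2 fold change -0.64, SE 0.240 without and 0.0681 with the block; limma voom adjusted p = 0.00626). IL24, a cytokine of the interleukin 10 family, was higher, at 3.34, 4.42 and 2.86 against 9.40, 8.07 and 5.61 RPKM (log2 fold change 1.09; limma voom adjusted p = 0.00458; without OTUB2 replicate 1 0.93 and 0.0572). Apart from the secreted genes, ADGRG1, an adhesion receptor, was at 0.836, 1.43 and 0.939 against 1.99, 2.79 and 1.55 RPKM (log2 fold change 0.92; limma voom adjusted p = 0.00616).

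Of 19 NF-kB targets and of 25 immediate early genes measured, 2 each were called by limma voom with the block. By limma with or without the block 0 were called. Over all genes, limma voom with the block called 0.393%. PTGS2, the inducible prostaglandin synthase, was at 1.99, 3.27 and 1.91 RPKM with the vector and 1.05, 1.28 and 0.993 with OTUB2 (log2 fold change -1.01; limma voom adjusted p = 0.00616), without overlap. EGR1, an immediate early transcription factor, was at 15.3, 30.8 and 20.7 against 10.7, 17.0 and 9.45 RPKM. Replicate 2 is the highest in both groups, so the groups overlap, and the SE was 0.292 without and 0.139 with the block (log2 fold change -0.83; limma voom adjusted p = 0.0220). IL11 shows the same pattern, with 29.2 and 21.6 RPKM in the replicates 2 and 9.70 to 13.8 in the others (log2 fold change -0.46; limma voom adjusted p = 0.0271). HLA-B, a class I antigen-presenting molecule that blood cells also express, was at 8.51, 8.17 and 5.69 RPKM with the vector and at 10.2, 3.97 and 3.27 with OTUB2. The high value is the library with blood transcripts, and without it the log2 fold change went from -0.52 to -1.01 (limma adjusted p = 0.883).

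**Figure D3:**
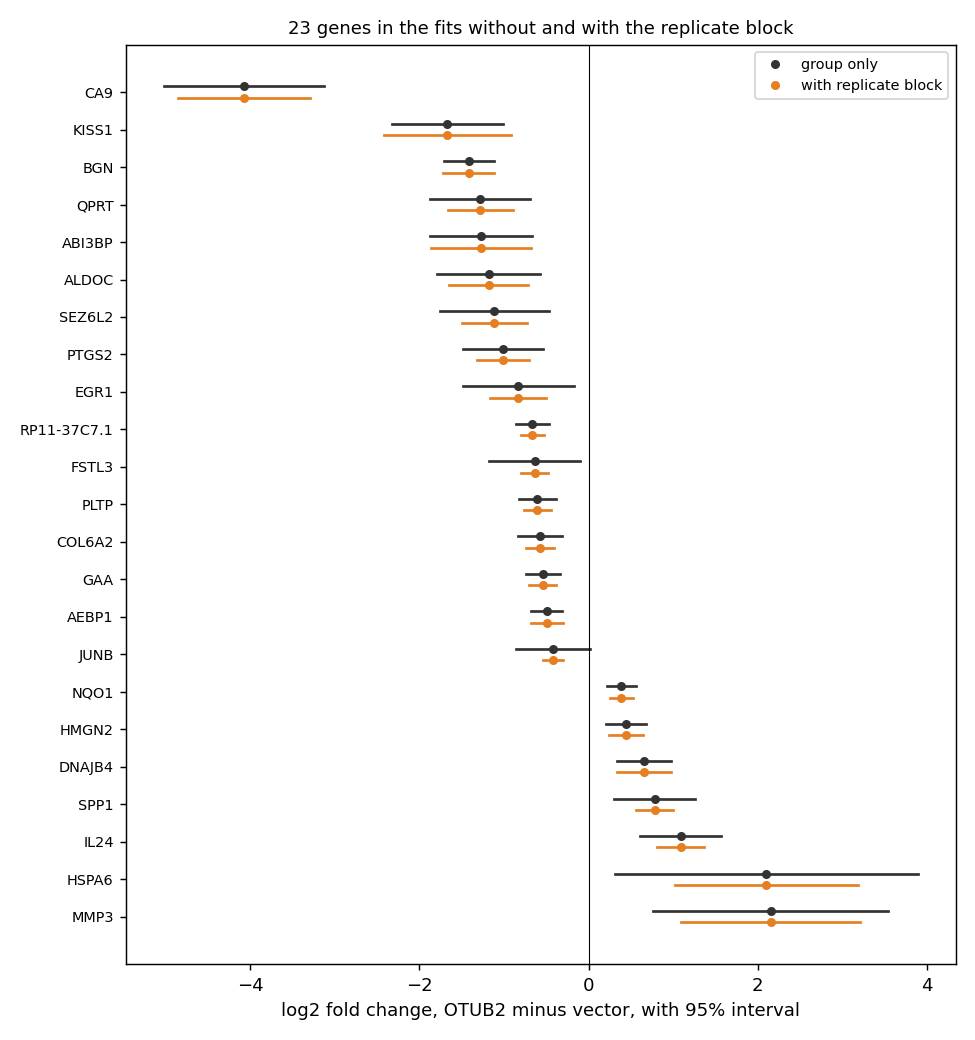
Log2 fold change (x, OTUB2 minus vector) of 23 genes (y) with its 95% interval, in the fit with group only (black) and with the replicate block (orange). The point estimates coincide, and the block shortens the interval for EGR1, FSTL3 and JUNB, while for KISS1 it widens.

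Over the list of NF-kB inflammatory targets, 17 of 19 measured genes were lower, with a median of -0.22, where 7936 of all 16533 genes were lower. Of the list 4 were lower at an unadjusted p under 0.05, and 0 higher, beside 3.1% and 3.62% of all genes. The mean level of the list was 0.12, 0.35 and 0.03 in the vector libraries and -0.13, 0.12 and -0.20 in the OTUB2 libraries (log2, centred over all 9), so the groups overlap and vector replicate 2 is the highest. CXCL8, a neutrophil chemokine, went the other way at 0.24, with overlapping groups. Among 25 immediate early genes 18 were lower, with a median of -0.11. In class I antigen presentation 13 of 16 were lower, with a median of -0.08.

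Of 15 heat shock and chaperone genes measured, limma called 0 with or without the block. Among them limma voom with the block called 1, DNAJB4, beside 0.393% of all genes. The highest levels were in OTUB2 replicate 1. HSPA6, an inducible HSP70 that is not on that list, was at 0.415, 0.307 and 0.265 RPKM with the vector and 6.31, 0.782 and 0.972 with OTUB2. Its log2 fold change was 2.10 on the RPKM scale (limma adjusted p = 0.704) and 3.02 in limma voom with the block (adjusted p = 0.00473). Without OTUB2 replicate 1 these were 1.195 (adjusted p = 0.963) and 2.45 (adjusted p = 0.0802). HSPA1A, the main inducible HSP70, was at 44.1, 125 and 68.0 against 449, 127 and 114 RPKM, so only replicate 1 clearly exceeds the vector libraries (log2 fold change 1.37, and 0.73 without replicate 1). DNAJB4, an HSP70 cofactor, was at 4.31, 4.93 and 4.68 against 9.43, 6.65 and 6.33 RPKM, without overlap (log2 fold change 0.66; limma voom adjusted p = 0.0454; without OTUB2 replicate 1 0.48 and 0.261). HMOX1, haem oxygenase, was at 28.2 RPKM in that library and at 11.2 and 9.79 in the other two, against 7.66 to 9.73 with the vector. The log2 fold change of HMOX1 was 0.72, and 0.25 without OTUB2 replicate 1. The heat shock list had 14 of 15 genes higher, with a median of 0.20, beside 52% of all genes higher. Its mean level was -0.49, -0.08 and -0.19 in the vector libraries and 0.40, -0.03 and -0.04 in the OTUB2 libraries. SNX29P2 replicate 1 was at 0.39, so high values go with the number 1 in both overexpression groups but not in the vector group. The level of 7 histone genes, whose messages mostly lack poly(A) tails, was 0.54 in OTUB2 replicate 1 and 0.33 in SNX29P2 replicate 1. It was -0.39 to 0.02 in the vector libraries. In replicates 2 and 3 it was -0.05 and -0.04 with OTUB2 and -0.08 and -0.32 with SNX29P2. Whether this level reflects RNA selection, and its part in these results, was not tested.

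HIF target genes lay lower in 20 of 24 cases, with a median log2 fold change of -0.15, beside 0.01 over all genes. Over all genes, 7936 of 16533 were lower. Counting CA9, 3 members of the list were lower at an unadjusted p under 0.05, with 0 higher, beside 3.1% and 3.62% of all genes. By limma with or without the block, 1 of the 24 was called, CA9. With the block, limma voom called 2, CA9 and BHLHE40, beside 0.393% of all genes. BHLHE40 had a log2 fold change of -0.53 (limma adjusted p = 0.784; limma voom adjusted p = 0.0478, and 0.339 without OTUB2 replicate 1). PLOD2, a collagen lysyl hydroxylase, was at 57.3, 62.4 and 47.8 RPKM with the vector and 37.3, 43.2 and 46.0 with OTUB2 (log2 fold change -0.40; limma adjusted p = 0.661). DDIT4, a stress-induced inhibitor of mTORC1, was at 3.96, 5.80 and 2.35 against 1.47, 3.51 and 1.48 RPKM, with overlap (log2 fold change -0.90; adjusted p = 0.733). LOX, a collagen crosslinking oxidase, was the highest member, at 0.18. The list's mean level was 0.40, 0.26 and -0.01 in the vector libraries and -0.16, -0.00 and -0.22 in the OTUB2 libraries, so the groups overlap. With 1 library left out, the median ran from -0.21 to -0.04, and 2 to 9 members were higher, with 9 without vector replicate 1. Glycolysis had 13 of 19 enzymes lower, with a median of -0.04. PGK1, phosphoglycerate kinase, was at 125, 123 and 116 against 107, 110 and 107 RPKM (log2 fold change -0.16; adjusted p = 0.663).

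No gene of the respiratory chain encoded in the nucleus was called by limma with or without the block or by limma voom with it. MT-CO2 and MT-ND4, encoded in mitochondria, were called by limma voom with the block, which called 0.393% of all genes. Of 34 nuclear respiratory chain subunits 26 were higher, with a median of 0.05, where 52% of all genes were higher. At an unadjusted p under 0.05, 5 of these subunits were higher and 0 lower, beside 3.62% and 3.1% of all genes. NDUFV2, a complex I subunit, was at 39.1, 40.4 and 45.9 RPKM with the vector and 47.9, 46.3 and 49.1 with OTUB2 (log2 fold change 0.20; limma adjusted p = 0.688). ATP5L, an ATP synthase subunit, was at 17.2, 18.2 and 18.4 against 20.4, 19.7 and 20.1 RPKM (log2 fold change 0.17). The tricarboxylic acid cycle had 20 of 25 genes higher, with a median of 0.07. Of 13 mitochondrially encoded genes 11 were lower, with a median of -0.16 that was -0.07 after quantile normalization and -0.08 without OTUB2 replicate 1. MT-CO2, a cytochrome oxidase subunit, was at 7872, 7899 and 7087 RPKM against 6486, 6271 and 6523, without overlap (log2 fold change -0.24; limma voom adjusted p = 0.0463). MT-ND2, of complex I, was the highest of the mitochondrially encoded genes, at 0.11.

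For lipid synthesis, vector replicate 1 was the library that stood out. Of 23 cholesterol synthesis genes 19 were lower, with a median of -0.24, where 7936 of all 16533 genes were lower. The list's mean level was 0.60, 0.01 and -0.14 in the vector libraries and -0.03, -0.11 and -0.12 in the OTUB2 libraries. STARD4, a sterol carrier, was at 4.79, 1.22 and 0.889 RPKM against 1.15, 0.779 and 1.05. Without that library the median was -0.06. SCD, the fatty acid desaturase, was at 105, 54.2 and 44.6 against 38.2, 35.6 and 40.04 RPKM (log2 fold change -0.74; limma adjusted p = 0.677), and FASN, fatty acid synthase, at 89.9, 77.2 and 79.7 against 72.9, 65.9 and 73.1 (-0.22). Both had groups without overlap. The median of 15 fatty acid synthesis genes was -0.12, and 0.00 without vector replicate 1.

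Genes of G2/M and mitosis were higher in 30 of 30 cases, with a median of 0.29, beside 52% of all genes higher. The vector libraries were at -0.08, -0.61 and 0.11 and the OTUB2 libraries at 0.01, 0.07 and 0.19, so vector replicate 2 was far below the other 5 libraries. CENPF, a kinetochore protein, was at 22.9, 12.6 and 22.7 RPKM with the vector and 24.5, 23.1 and 26.1 with OTUB2. Without vector replicate 2 the median was 0.08, with 24 of 30 genes higher. DNA replication had 28 of 32 genes higher, with a median of 0.06. Over all genes 3.62% were higher at an unadjusted p under 0.05. The proteasome had 30 of 31 genes higher, with a median of 0.12, and 6 at that threshold. PSMB2, a subunit of its core, was at 34.3, 28.2 and 34.1 against 36.1, 36.7 and 39.0 RPKM (log2 fold change 0.22; limma adjusted p = 0.704). Of the 6 libraries, vector replicate 2 was the lowest for the proteasome too, and without it 23 of 31 genes were higher, with a median of 0.07.

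NRF2 targets were higher in 13 of 20 cases, with a median of 0.06, where 52% of all genes were higher. TXNRD1, thioredoxin reductase, was at 94.5, 111 and 104 RPKM against 129, 118 and 120 (log2 fold change 0.25). ATF4, the factor of the amino acid response, was at 89.1, 90.8 and 86.9 against 116, 107 and 101 RPKM (log2 fold change 0.28; limma adjusted p = 0.606). Its target ASNS, asparagine synthetase, was at 9.11, 25.9 and 10.8 against 6.69, 8.51 and 6.65 RPKM. Of the 20 genes of that response 10 were higher and 10 lower. YAP and TAZ targets were lower in 16 of 23 cases, with a median of -0.07, and cytosolic ribosomal proteins in 29 of 33, with a median of -0.06. The 6 measured genes for proteins reported as OTUB2 substrates were split 3 and 3, with a median of -0.00. Genes of TGF-beta, activin and BMP signalling, p53 targets and interferon-stimulated genes had medians of -0.04, -0.01 and 0.01.

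**Figure D4:**
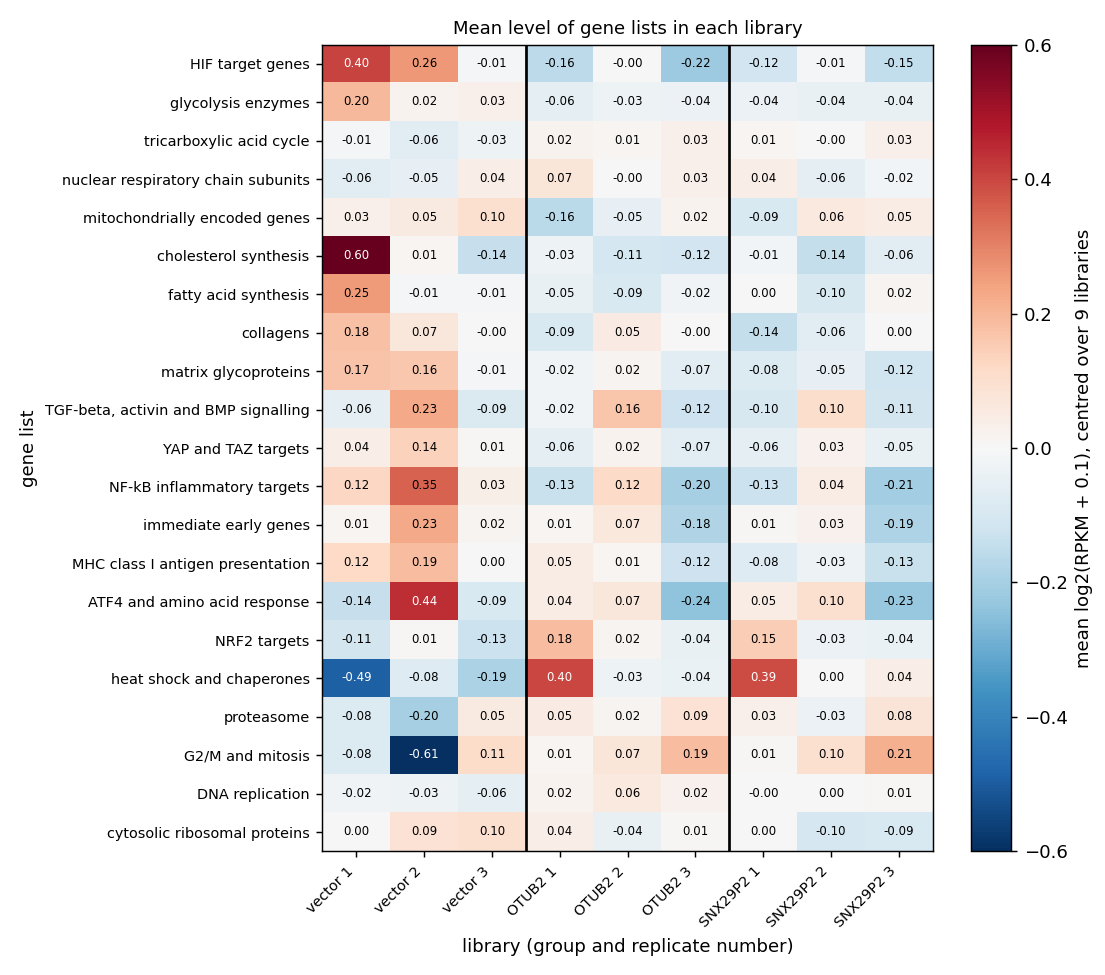
Mean level of 21 gene lists (rows) in each of the 9 libraries (columns), as log2(RPKM + 0.1) centred over libraries, with each value printed. Cholesterol synthesis is high in vector replicate 1, G2/M is low in vector replicate 2, and heat shock is high in replicate 1 of both overexpression groups.

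A direct test asked whether the OTUB2 libraries differ from the SNX29P2 libraries. It called 4 genes, or 0.0242%: OTUB2, higher, and SNX29P2, its relative SNX29P1 and a clone-named transcript, lower. The calls of OTUB2 and SNX29P2 follow from the overexpression itself. SNX29P2 was nearly absent from the vector and OTUB2 libraries and passed the filter only through the group that overexpresses it. An unadjusted p under 0.05 was found for 2.43% of genes. In the SNX29P2 libraries CA9 was at 0.104, 0.330 and 0.152 RPKM, BGN at 1.73, 1.98 and 1.94 and ABI3BP at 0.236, 0.299 and 0.261, all close to the OTUB2 libraries. The difference, OTUB2 minus SNX29P2, was -0.22 for CA9 (95% interval -1.16 to 0.72), 0.25 for BGN (-0.04 to 0.55) and -0.00 for ABI3BP (-0.60 to 0.60). These intervals exclude differences as large as those from the vector. For KISS1 the difference was -0.15 (-0.80 to 0.51). With the replicate block, limma also called 4 genes, or 0.0242%, and 4.71% had an unadjusted p under 0.05. The numbers of these 2 groups were treated as paired. The block was fitted to all 9 libraries, however, and so also spans the vector libraries, whose numbers were not taken as pairs. Of the 65 genes called against the vector by limma voom with the block, 1, OTUB2, was called in this test with or without the block. At an unadjusted p under 0.05 there were 3 without and 12 with the block. Without it, the other two were GAA, 0.20 higher with OTUB2 (95% interval 0.00 to 0.40), and ARHGDIB, a regulator of small GTPases, 0.17 higher (0.01 to 0.32). With it, ADGRG1 had the smallest p after OTUB2, at 0.58 (95% interval 0.26 to 0.91; limma adjusted p = 0.919). The blocked intervals were -0.99 to 0.55 for CA9, -0.05 to 0.56 for BGN and -0.60 to 0.59 for ABI3BP. Several list medians were alike in both overexpression groups. For SNX29P2 minus vector they were 0.32 for G2/M, -0.24 for cholesterol synthesis, -0.28 for NF-kB targets, 0.23 for heat shock and 0.10 for the proteasome. For OTUB2 minus vector these were 0.29, -0.24, -0.22, 0.20 and 0.12. Medians of HIF targets and nuclear respiratory chain subunits were -0.07 and 0.00 with SNX29P2, beside -0.15 and 0.05 with OTUB2. Both overexpression groups are compared with the same 3 vector libraries, so what differs from the vector in both cannot be told apart from what is particular to those vector libraries.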

How the data were processed

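The authors deposited 1 table of RPKM values for 9 libraries of ES-2 RNA, per the file headers, with positions on GRCh38 (source: the submitters' processing notes). For strand, counter, aligner and annotation, the choice is not given in the sources used here. RPKM multiplied by gene length gave whole reads within 0.05 for 100% of values below 1000 reads. Of these 58.1 to 60.4% were even; reads need not be independent molecules. 25 names turned into dates were left unnamed. The fit was limma 3.58.1 (R 4.3.3) with a trended variance on log2(RPKM + 0.1) of all 9 libraries, with group as the term and, beside it, the replicate number as block. Small changes of low genes are understated on this scale. limma voom used the recovered reads. Same-numbered OTUB2 and SNX29P2 libraries deviated together from their group means (correlations 0.270, 0.259 and 0.153), so these were treated as paired, from the data and not the labels. Scripts were tested on simulated data. Alternatives changed the pseudocount, filter, scaling, variance fit and libraries.

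Members, the 36 gene lists (674 entries, 13 matched by another symbol, 15 unmatched, 575 tested) and tests were chosen with earlier results of these data known. Named genes were OTUB2, CA9, HIF1A, VHL and SNX29P2; those called with or without the block; the 12 highest and 12 lowest fold changes without overlap at an unadjusted p under 0.05 and a mean of at least 1 RPKM; and from each list the 3 smallest p and both extremes. Of the 12 highest, 9 were not listed as protein-coding in GENCODE 29, and of the 12 lowest, 8; of these AC009133.22 is described.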

Additional observations from a re-analysis of the deposited data

Results flagged for a closer look

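Transcripts of blood cells were found in OTUB2 replicate 1, in genes that did not pass the filter and enter no comparison, above every vector library. HBA2 was at 952 RPKM, HBB at 186 and HBA1 at 65.9, against at most 2.12, 0.352 and 0 in the other 8 libraries. Among genes of neutrophils and monocytes, S100A9 was at 8.54 RPKM, LYZ at 4.22, FCGR3B at 3.31 and CSF3R at 1.38, against at most 0, 0.213, 0 and 0.00616. PTPRC, the common leukocyte marker, was at 0.332 RPKM and CD3E of T cells at 0.282. Vector replicate 2 had 70 reads of HBA2 and 16 of HBB, where OTUB2 replicate 1 had 34576 and 9309. The list was chosen after the values were seen, and the source of these reads was not tested.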

How the results depend on the processing

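Without a block, limma called 3 genes. It called 7 with no filter, 1 with only the OTUB2 and vector libraries, 1 without every library numbered 1, 2 or 3 in turn, and 1 to 8 with 1 library left out. With the replicate block it called 4, and 1 with only the compared groups or without the libraries of 1 number, and 1 to 7 with 1 library left out. limma voom with the replicate block called 65, 3 with no replicate block, 25 with only the compared groups and 4 to 792 with 1 library left out. The last 2, and the left-out libraries with the block, were alternatives chosen after seeing the data. The cause was not tested. Other settings gave counts within 1.5 times of these. OTUB2 against SNX29P2 gave 4 calls, and 1 with a filter of 1 RPKM in 6 libraries, which tests fewer genes and leaves out SNX29P2. VHL ran from -0.0782 to 0.10 with 1 library left out, below 0 without vector replicate 3 or OTUB2 replicate 2, and was at -0.10 without the libraries numbered 3, with or without the block. SNX29P2 ran from -0.344 to 0.024 with 1 library left out, above 0 without vector replicate 1, and MT-CO3 was at 0 after quantile normalization. Over 97 genes examined one by one, 2313 values under an alternative kept direction and side of the threshold, 26 lost it, 75 gained it and 6 changed direction.

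The replicate numbers were not taken to pair the vector and OTUB2 samples. Deviations of same-numbered libraries correlated at 0.051, 0.193 and 0.139, and those of unlike numbers at -0.1425 to 0.007. A pair under 0.1, here number 1, was read as sharing only a number. The block results are given because the numbers stand in the labels. At 38504854 or more reads a library, 3 libraries a group limit detection to changes well beyond 0.283 for a typical gene.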
